A study of Saccharomyces cerevisiae with 4 samples.

Results

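A set of 10 genes of Saccharomyces cerevisiae that make chitin, or attach it to the rest of the cell wall, was followed in a hog1 mutant whose wall was digested with Zymolyase. The 10 genes were taken by their systematic names out of 6207 yeast rows on the array. They are GFA1 (YKL104C), GNA1 (YFL017C), PCM1 (YEL058W), QRI1 (YDL103C), CHS1 (YNL192W), CHS3 (YBR023C), SKT5 (YBL061C), CHS7 (YHR142W), CRH1 (YGR189C) and UTR2 (YEL040W). Each has 1 row, and RefSeq's R64 gene table pairs all 10 names with these symbols. Of the 10, 8 had a value on all 4 arrays, and CHS1 and CHS3 lacked a value on array 1.

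The treated cells were hog1 mutants grown in the rich medium YEPD at 24 °C and exposed to Zymolyase 100T at 5 units/ml, with RNA taken at 3 h. The untreated cells were the other part of the same hog1 cultures, grown on without the enzyme. Zymolyase is an enzyme preparation that digests the beta-glucan of the yeast wall, and Hog1 is the mitogen-activated protein kinase of the high-osmolarity pathway. The treated and untreated cells therefore carried the same hog1 mutation, the labels name neither its allele nor the strain background, and HOG1 was blank on each of the 4 arrays. Total RNA of 2 cultures was compared on 2-colour arrays, in 4 hybridisations, and the dyes were swapped between the 2 hybridisations of a culture. Arrays 1 and 3 had the treated RNA in Cy3, while arrays 2 and 4 had it in Cy5. Which arrays came from the same culture is not labelled, and no wild-type cells were analysed here.

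Chitin is a polymer of N-acetylglucosamine. Its precursor, UDP-N-acetylglucosamine (UDP-GlcNAc), is built from fructose 6-phosphate by Gfa1, Gna1, Pcm1 and Qri1 in turn. Chs3 makes most of the chitin of the ring at the bud neck and of the lateral wall, needs Chs7 to leave the endoplasmic reticulum and Skt5 (also called Chs4) to be active, while Chs1 repairs the wall at cell separation. Crh1 and Utr2 are transglycosylases of the wall that join chitin to beta-glucan, and yeast cells with a damaged wall are known to lay down more chitin.

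Each value below is a normalized log2 ratio of the treated over the untreated cells on 1 array, deposited by the authors, with the sign reversed for arrays 2 and 4. No source used here states the numerator, so this direction is the likely one. It rests on the linear ratios behind the values, which shared 1 numerator across the 4 arrays, and on the mating and filamentation genes PRM1, FIG1 and PGU1, nearly silent in unstimulated cells, whose mean log2 ratios were 6.51, 5.40 and 5.38. Were the untreated cells the numerator, all signs would be the reverse, with sizes and p-values as given. Arrays 1 to 4 gave a value for 45.0%, 67.1%, 85.7% and 82.6% of the yeast rows, and the 2715 genes with a value on all 4 were tested.

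In the Zymolyase-treated cells GFA1, CHS7, SKT5 and CRH1 rose, and none of the 8 tested genes fell. In bulk cultures, more cells that express a gene and more RNA per cell cannot be told apart. The rises lay at the entry of precursor synthesis, at the export and activation of Chs3, and at crosslinking. GNA1, QRI1 and UTR2 stayed within 0.37 of 0 on the log2 scale on each array, and so did CHS3 on its 3 arrays. The call rule was an adjusted p under 0.05 by limma on the means of the 2 cultures, with the Benjamini-Hochberg method over the 2715 genes. The rule called 4 of the 8 tested chitin genes higher and 0 lower, where 2.03% of all tested genes were called higher and 0.184% lower. The median of the 8 mean log2 ratios was 0.73, against −0.05 over all tested genes. The genes were chosen with earlier results of these data known, so the counts describe them and are not a test of the group.

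**Figure D1:**
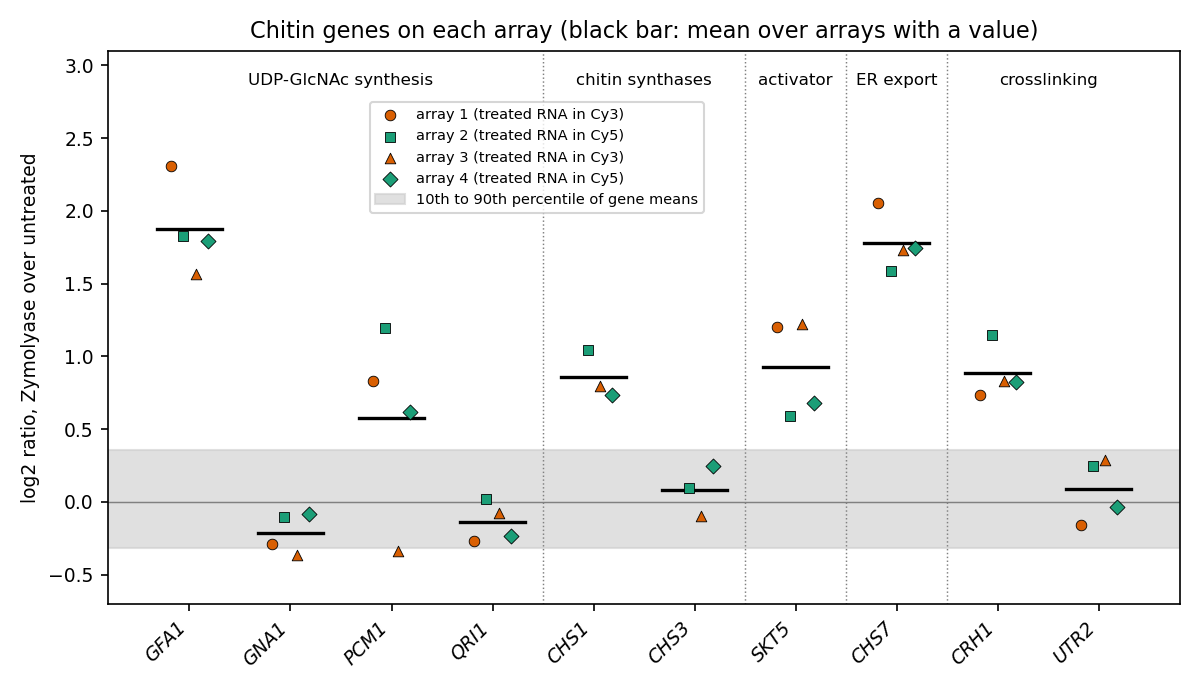
Log2 ratio of Zymolyase-treated over untreated hog1 cells (vertical axis) for each chitin gene on arrays 1 to 4, ordered by step. Points are arrays, black bars are means over the arrays with a value, and the grey band spans −0.32 to 0.36, the 10th to 90th percentile of the means of 2715 tested genes. All points of GFA1, CHS1, SKT5, CHS7 and CRH1 lie above the band, and PCM1 has array 3 below it and the other arrays above.

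The precursor genes did not move as a unit. GFA1 encodes glutamine:fructose-6-phosphate amidotransferase, which catalyses the first and rate-limiting step of UDP-GlcNAc synthesis. Its log2 ratios were 2.31, 1.83, 1.57 and 1.79 on arrays 1 to 4, so every array was past 1.5. The mean was 1.87 ± 0.31 (SD, n = 4 arrays), 3.67-fold, with an adjusted p of 0.00731 by limma and a 95% interval of 2.79-fold to 4.81-fold. Its mean was the 23rd highest of the 2715 tested genes.

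GNA1 encodes the acetyltransferase of the next step. Its log2 ratios were −0.29, −0.10, −0.37 and −0.09, all below 0, as was the case for 15.2% of all tested genes. The mean of −0.21 ± 0.14 did not pass (adjusted p = 0.516 by limma), and the interval of 0.689-fold to 1.08-fold leaves room for a fall of that size or a small rise. QRI1 encodes the pyrophosphorylase that makes UDP-GlcNAc itself. Its log2 ratios were −0.27, 0.02, −0.08 and −0.23, with a mean of −0.14 ± 0.13 that did not pass (adjusted p = 0.678 by limma; 0.723-fold to 1.14-fold).

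PCM1 encodes the phosphoacetylglucosamine mutase between Gna1 and Qri1. Its log2 ratios were 0.83, 1.19, −0.34 and 0.62, so array 3 lay below 0 and the other arrays above 0.6. Its SD of 0.65 exceeded that of 94.1% of the tested genes, and the mean of 0.58 did not pass (adjusted p = 0.343 by limma; 0.991-fold to 2.24-fold). Without array 3 the mean was 0.88 with an adjusted p of 0.00622 by limma, where 4.75% of all tested genes were called. With arrays 1+4 and 3+2 taken as the cultures the mean of 0.58 had an adjusted p of 0.00377 by limma. That pairing called 10.2% of all tested genes and gave every gene the same standard error. The spread of PCM1 itself therefore did not enter that p. Why array 3 departed for PCM1 was not tested.

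GFA1 exceeded GNA1 by 2.59, 1.93, 1.93 and 1.88 log2 units on arrays 1 to 4. It exceeded QRI1 by 1.65 to 2.57 and PCM1 by 0.64 to 1.90. Each difference was above 0 on 4 of 4 arrays, with an exact two-sided sign-turn p of 0.125. That is the smallest p this test can give with 4 arrays, so the test could not pass 0.05, and it treats the arrays as independent although they came from 2 cultures. Adjusted over the 7 pairs compared, the p-values were 0.219 for pairs on 4 arrays and 0.25 for pairs on 3.

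Of the synthase genes, CHS1 and CHS3 had values on arrays 2, 3 and 4 and were outside the 4-array test. CHS1 had log2 ratios of 1.04, 0.80 and 0.74, all above 0.7, with a mean of 0.86 ± 0.16 (SD, n = 3 arrays), 1.81-fold. In a fit of arrays 2, 3 and 4 with all 4036 of their rows, chosen after the data were seen, CHS1 was called with an adjusted p of 0.0291 by limma, where 2.21% of rows were called. Among rows measured at least once in each dye orientation, where 1.29% of 5107 rows were called, it was not called (adjusted p = 0.0721 by limma). In both fits 1 of the 2 cultures was a single array for CHS1, so dye did not cancel there.

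CHS3, the synthase of most wall chitin, had log2 ratios of 0.10, −0.10 and 0.25 and a mean of 0.08 ± 0.17 (SD, n = 3 arrays). These values lay on either side of 0, and it was not called in either of those fits (adjusted p = 1.00 and 0.906 by limma). CHS1 exceeded CHS3 by 0.94, 0.89 and 0.49 log2 units on arrays 2, 3 and 4. The mean difference of 0.78 ± 0.25 had an exact two-sided sign-turn p of 0.25, the smallest that 3 arrays allow.

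The genes of both named partners of Chs3 rose. CHS7 encodes the endoplasmic reticulum protein that Chs3 needs for its export. Its log2 ratios were 2.06, 1.59, 1.73 and 1.74, so the lowest array was above 1.5 and the spread was small, with an SD of 0.20 against a median SD of 0.29 over all tested genes. The mean of 1.78 was 3.43-fold (adjusted p = 0.00452 by limma; 95% interval 2.73-fold to 4.32-fold) and the 26th highest of the tested genes.

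SKT5 encodes the activator that binds Chs3 at the bud neck. Its log2 ratios were 1.20, 0.59, 1.22 and 0.68, above 0.5 on each array, with the higher values on the 2 arrays whose treated RNA carried Cy3. The mean of 0.92 ± 0.34 was 1.90-fold (adjusted p = 0.0370 by limma; 95% interval 1.51-fold to 2.38-fold). On the Cy5-treated arrays alone the mean was 0.63 (adjusted p = 0.118 by limma), and on the Cy3-treated arrays alone it was 1.21 (adjusted p = 0.00192). The part of the dye in this gap was not tested. SKT5 was not called without array 1 (mean 0.83, adjusted p = 0.0792 by limma) or without array 2 (mean 1.04, adjusted p = 0.156).

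CHS7 exceeded CHS3 by 1.49, 1.82 and 1.49 log2 units on arrays 2, 3 and 4, and SKT5 exceeded CHS3 by 0.49, 1.32 and 0.44. Both differences were above 0 on 3 of 3 arrays, with an exact two-sided sign-turn p of 0.25 each.

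The crosslinking genes CRH1 and UTR2 encode related enzymes with the same reaction. CRH1 had log2 ratios of 0.73, 1.15, 0.83 and 0.82, all above 0.7. Its mean of 0.88 ± 0.18 was 1.85-fold (adjusted p = 0.0461 by limma; 95% interval 1.46-fold to 2.32-fold). Its call was close to the threshold: it was lost without array 2 (mean 0.80, adjusted p = 0.248 by limma) and without array 4 (mean 0.90, adjusted p = 0.0867).

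UTR2 had log2 ratios of −0.16, 0.25, 0.29 and −0.04, on either side of 0. Its mean of 0.09 ± 0.22 did not pass (adjusted p = 0.819 by limma), and the interval ran from 0.844-fold to 1.33-fold. CRH1 exceeded UTR2 by 0.89, 0.90, 0.54 and 0.86 log2 units, 1.74-fold on average, with an exact two-sided sign-turn p of 0.125. The 95% interval of CRH1 lay above that of UTR2.

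**Figure D2:**
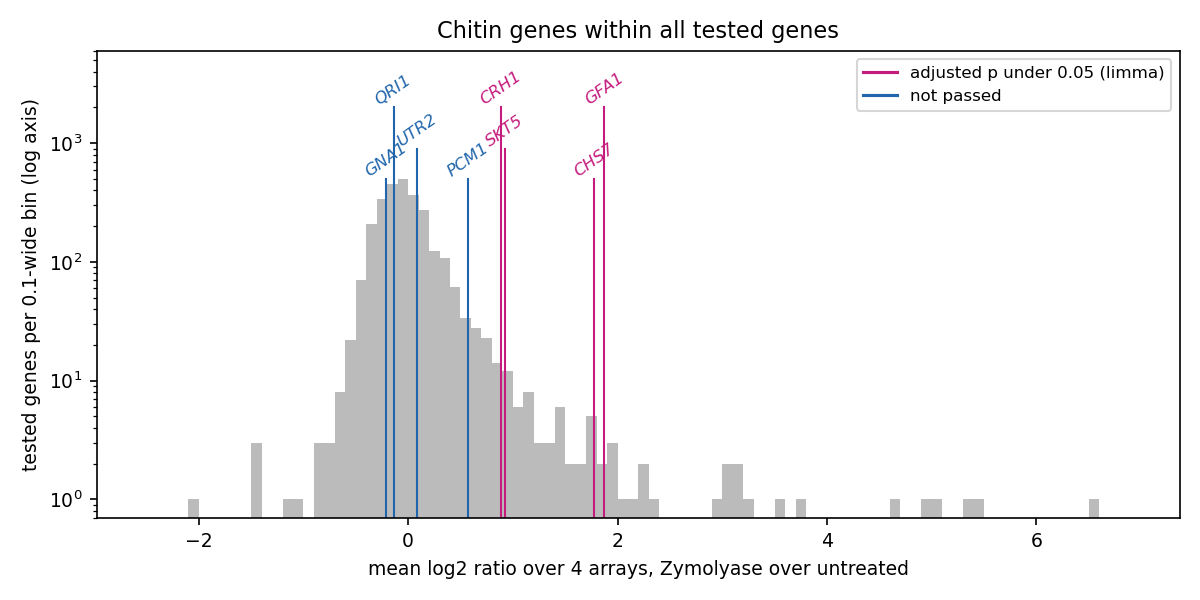
Histogram of the mean log2 ratio over 4 arrays (horizontal axis) of 2715 tested genes, with the number of genes in each bin on a log axis. Lines mark the 8 chitin genes with a value on all 4 arrays, pink where the adjusted p was under 0.05. GFA1 at 1.87 and CHS7 at 1.78 lie far in the upper tail, SKT5 at 0.92 and CRH1 at 0.88 at its start, and GNA1, QRI1 and UTR2 within the bulk.

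By size the 4 called genes fell into a higher pair, GFA1 and CHS7, and a lower pair, SKT5 and CRH1. Only 2.76% of tested genes had a mean log2 ratio at least as high as that of CRH1, the lowest of the 4. GFA1 and CHS7 were also among the 1.99% of tested genes past 2-fold with a value above 0 on every array. The order within each pair is not resolved, since the intervals of GFA1 and CHS7 overlap, as do those of SKT5 and CRH1. The intervals of the higher pair lie above those of the lower pair, with 1.45 as the lower end for CHS7 against 1.25 as the upper end for SKT5 on the log2 scale.

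Most of the tested chitin genes had similar values in both dye orientations. The mean of the Cy5-treated arrays minus that of the Cy3-treated arrays was −0.13 for GFA1, −0.23 for CHS7, 0.20 for CRH1, 0.04 for UTR2, 0.07 for QRI1 and 0.23 for GNA1. The median size of this gap over all tested genes was 0.28. PCM1 (0.66) and SKT5 (−0.58) had larger gaps, of opposite sign, and these were larger than in 86.3% and 80.8% of the tested genes.

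**Figure D3:**
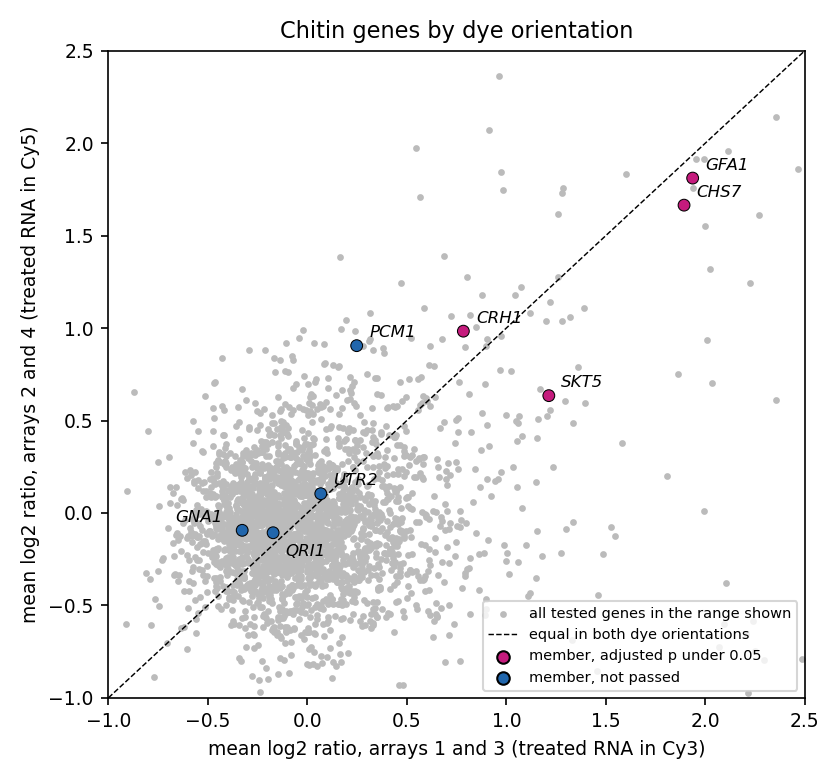
Mean log2 ratio on arrays 1 and 3, with treated RNA in Cy3 (horizontal axis), against that on arrays 2 and 4, with treated RNA in Cy5 (vertical axis). Grey points are tested genes, coloured points are the chitin genes, and the dashed line marks equal values. GFA1, CHS7 and CRH1 lie near the line in the upper right, SKT5 below it and PCM1 above it.

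The genes next to the called ones in the R64 order were read beside them. RPL42B and DSE2 flank CHS7 and had mean log2 ratios of −0.10 and −0.38 over 4 arrays. HIP1, next to CRH1, had a mean of 0.07. KIP1, next to SKT5, had −0.57, −0.13 and 0.40 on arrays 2, 3 and 4, and YEL1, on its other side, had −0.04 and 0.67 on arrays 3 and 4. SEG2, next to GFA1, had −0.22 and 0.55 on arrays 3 and 4. Each of these neighbours lay below the called gene it flanks on every array that measured it, though YEL1 at 0.67 was close to SKT5 at 0.68 on array 4. Most genes would lie below genes called for high ratios, so this comparison cannot tell whether neighbours added to their values. The value for GFA1 may include cDNA of YKL104W-A, which overlaps it in R64 and has no value on these arrays. DUG3, next to CHS1, had 0.35, 0.55 and 0.54 on arrays 2, 3 and 4. YNL193W, on the other side of CHS1, had −0.42 on array 3, its only value.

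The wider chitin pathway was followed with 17 further genes for chitin synthesis, Chs3 transport, chitin modification and chitin breakdown, of which 6 had a value on all 4 arrays. None of the 6 was called by limma after adjustment, where 2.21% of all tested genes were, so 0 calls among so few genes do not set them apart. At an unadjusted p under 0.05 by limma there were 2, where 14.7% of all tested genes passed. The median of the mean log2 ratios of all 6 was 0.14. RCR1, an endoplasmic reticulum membrane protein that lowers chitin deposition when made in excess, had log2 ratios of 0.07, 0.87, 0.60 and 0.88. Its mean of 0.61 ± 0.38 did not pass (adjusted p = 0.162 by limma). CTS1, the chitinase that separates daughter cells, had 0.18, 0.35, 0.64 and 0.50, with a mean of 0.42 ± 0.20 that did not pass (adjusted p = 0.301 by limma). Both were above 0 on every array, which held for 9.83% of tested genes.

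Chs3 leaves the Golgi with the exomer, a coat of Chs5 and its partners Chs6, Bch1, Bch2 and Bud7. BCH1 had log2 ratios of 0.01, 0.47, 0.13 and 0.68 and did not pass (adjusted p = 0.352 by limma), and CHS5 had values from −0.64 to 0.24. BUD7 had 0.04, 0.25 and 0.45 on arrays 2, 3 and 4, CHS6 had 0.45 on array 3, and BCH2 had no value. These transport genes had smaller ratios than CHS7, on the arrays that measured them. That does not set them apart, since the mean of CHS7 lay above that of 99.0% of all tested genes. CHS2, the synthase of the primary septum, had values from −0.35 to 0.15 and a mean of −0.11. GLC7, the phosphatase that acts with Bni4 to hold Chs3 at the neck, had a mean of −0.05.

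The other 8 genes of that list had values on at most 3 arrays. YEA4, a transporter of UDP-GlcNAc, had 0.18, 0.21 and 0.47 on arrays 2, 3 and 4. PFA4, which attaches palmitate to Chs3, and the chitinase gene CTS2 had values of both signs on the same arrays. BNI4 had 0.26 and SHC1, the sporulation relative of SKT5, −0.37, each on array 3 alone. CRR1, the sporulation relative of CRH1, and CDA1, a chitin deacetylase of spores, had values of opposite sign on arrays 3 and 4. The deacetylase gene CDA2 had no value.

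Of 6 genes that supply or use UDP-GlcNAc or its precursors, 4 were tested and 0 were called by limma, where 2.21% of all tested genes were called. At an unadjusted p under 0.05 there was 1, where 14.7% of all tested genes passed. ALG13, of the enzyme that adds the second N-acetylglucosamine to the lipid-linked glycan, had log2 ratios of 0.05, 1.00, −0.14 and 0.89. Its high values came from the 2 arrays with treated RNA in Cy5, and the mean of 0.45 ± 0.58 did not pass (adjusted p = 0.259 by limma). PGI1, the glycolytic enzyme that makes fructose 6-phosphate, had 0.41, −0.02, 1.19 and −0.09 (adjusted p = 0.348 by limma). Its higher values came from the 2 arrays with treated RNA in Cy3. ALG7, which uses UDP-GlcNAc to start the lipid-linked glycan, had −0.05, −0.31, −0.50 and −0.53, below 0 on each array (mean −0.35, adjusted p = 0.360 by limma). GLN1, which makes glutamine, the other substrate of Gfa1, stayed between −0.01 and 0.09. ALG14 and GPI3, which had values on 3 and 2 arrays, averaged 0.01 and 0.24.

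**Figure D4:**
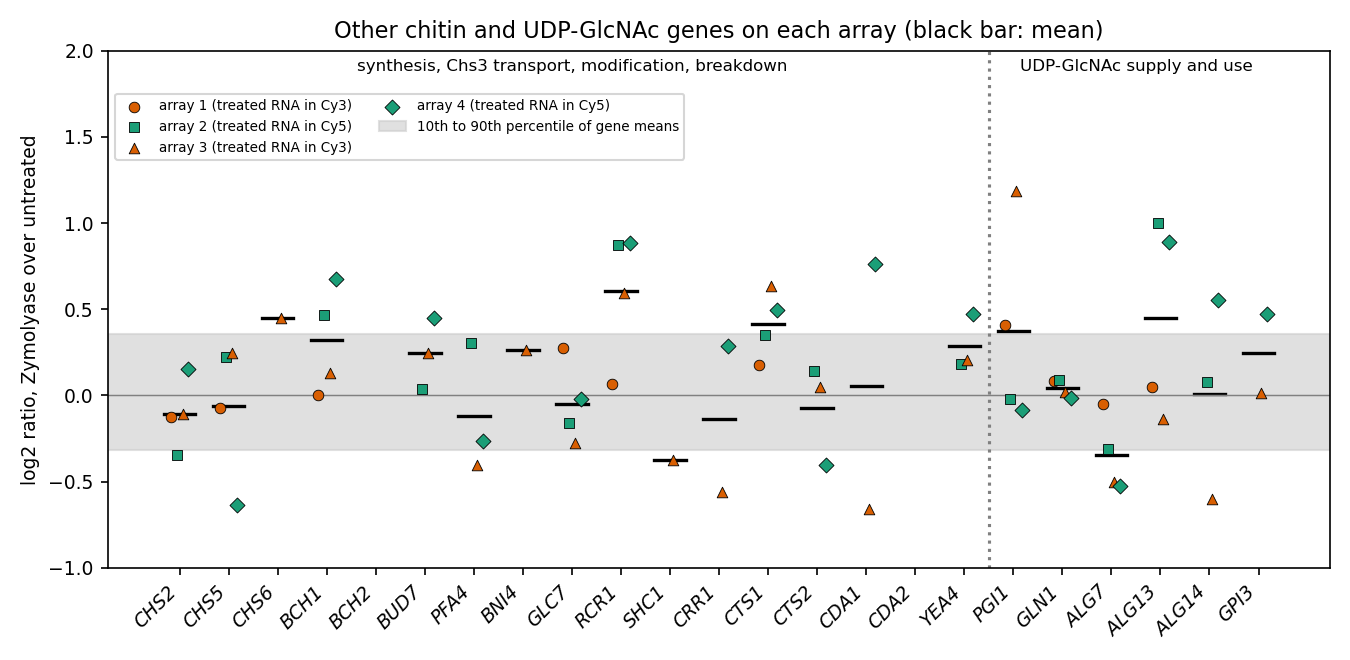
Log2 ratio of Zymolyase-treated over untreated hog1 cells (vertical axis) for 23 other genes of chitin metabolism and of UDP-GlcNAc supply and use, on arrays 1 to 4. Points are arrays, black bars are means, and the grey band is the 10th to 90th percentile of the means of all tested genes. RCR1, with a mean of 0.61, has the highest mean, and BCH2 and CDA2 have no value.

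CHS7 was called under all 16 of the alternative settings tried, GFA1 under 15, CRH1 under 12 and SKT5 under 10. The settings with a single pairing of the arrays had to call these genes, since the main rule kept the larger p of both pairings. Other settings took the arrays as replicates, although these came from 2 cultures, and all settings reused the same arrays. The tallies are therefore not counts of independent checks. GFA1 lost its call without array 2 (mean 1.89, adjusted p = 0.0668 by limma); the cause was not tested. Its mean log2 ratio stayed between 1.73 and 1.98, and that of CHS7 between 1.66 and 1.89. GNA1, QRI1 and UTR2 were called under none of the 16. Their means kept their sign in each, though some settings left the mean unchanged by design.

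**Figure D5:**
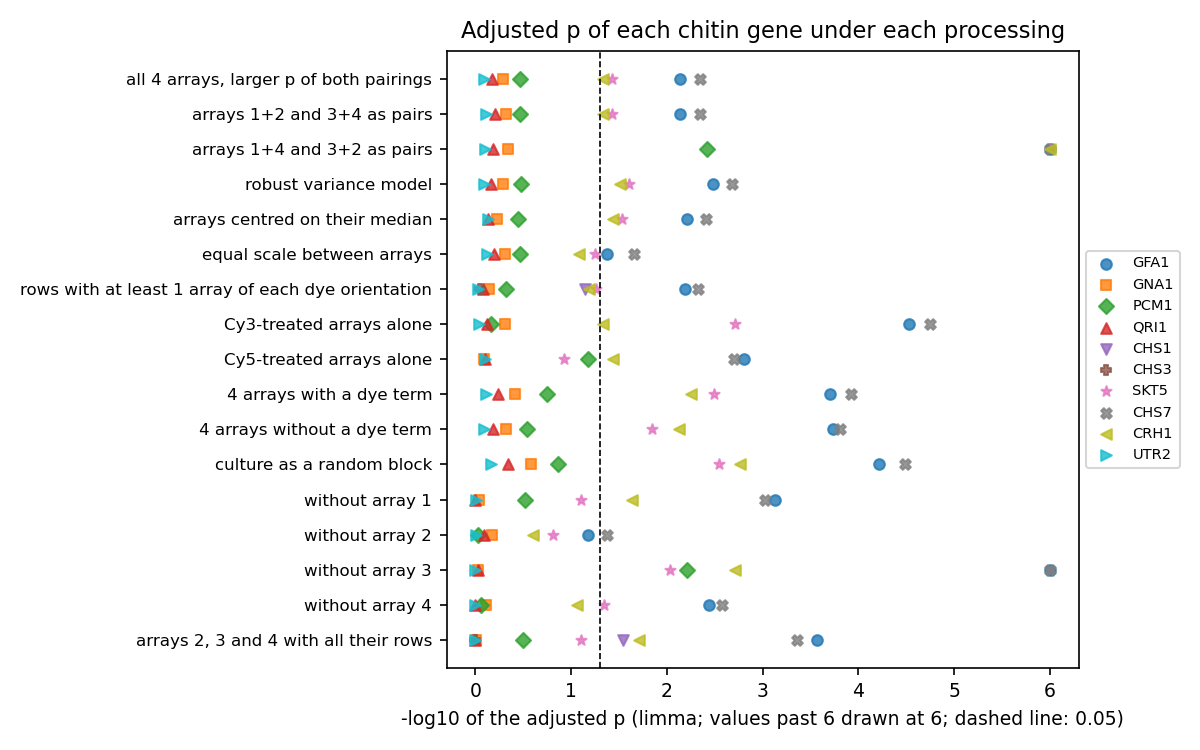
Adjusted p by limma, drawn as −log10 (horizontal axis), of each chitin gene under the 4-array test in the top row and each of 16 alternative settings in the rows beneath it. Symbols are genes, the dashed line marks an adjusted p of 0.05, and CHS1 and CHS3, with 3 arrays, appear under 2 settings. CHS7 lies right of the line in every row, GFA1 in every row except the one without array 2, and SKT5 and CRH1 on either side of it.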

How the data were processed

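Total RNA of treated and untreated parts of 2 hog1 cultures was labelled with Cy3 or Cy5 and hybridised to 4 arrays, per the labels' protocols. The authors deposited 1 table of normalized log2 ratios with 6209 rows, of which 2 were control rows and were left out. Image analysis, background correction, normalization and the reason for blanks are not stated in any source used. With arrays 2 and 4 reversed in sign, all 9281 values under 0 matched the base-2 logarithm of a ratio rounded to 4 decimals, where 56.5% would match by chance. As deposited, arrays of opposite dye orientation had Pearson correlations from −0.57 to −0.24 across the tested genes, and arrays of the same orientation 0.54 and 0.69. By rank (Spearman) they were weaker, from −0.185 to 0.002 for opposite orientations and 0.364 and 0.434 for the same. Across most genes, then, arrays of the same dye orientation were more alike than dye-swapped arrays.

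For each of the 2 ways to form dye-swap pairs, the pair means were tested against 0 with limma 3.58.1 (R 4.3.3). The larger p per gene was kept, adjusted over 2715 genes, and called under 0.05. A run on simulated data took arrays 1+2 and 3+4 as the cultures and had no dye effect, so it does not cover dye effects in these arrays. The prior degrees of freedom were 4.125 for arrays 1+2 and 3+4, and infinite for arrays 1+4 and 3+2. Intervals are the wider of the 2 fits' 95% intervals. Where 1 array was left out or blank, 1 culture was a single array, and its dye effect did not cancel. The mean printed for such a fit is that over the arrays, whereas its p tested the mean of the 2 cultures. Differences between members used an exact sign-turn test over arrays. The number of arrays limits the precision, and p-values rest on 2 cultures.

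Symbols came from R64, which held the locus tag of 5654 yeast rows. The sources name no genome build, so no coordinates are printed. Sequences and promoter motifs were not analysed here. The members and lists were chosen with earlier results of these data known. Named genes were all members, any called gene of the further lists and the 3 largest means of each; other genes of these lists, and the neighbours, were named after their values were seen. Alternatives changed the pairing, variance model, centring, scale, rows, dye orientation, replicate unit and arrays.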

Additional observations from a re-analysis of the deposited data

How the results depend on the processing

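Genes called over the whole table numbered 60. They moved to 277 with arrays 1+4 and 3+2 as pairs, 141 on the Cy3-treated arrays alone, 119 and 97 when the 4 arrays were the replicates, fitted with and without a dye term, and 149 with the culture as a random block. Without 1 array they ranged from 22 (without array 2) to 129 (without array 3). Chitin genes called numbered 4, where 2.21% of all tested genes were called. With equal scale between arrays they numbered 2 (GFA1 and CHS7), where 1.62% of all genes were called. Among rows measured at least once in each dye orientation they numbered 2 (the same genes), where 1.29% were. With 1 array left out they ranged from 1 (CHS7, without array 2, 0.810% of all genes called) to 5 (without array 3, 4.75%). In the 2 settings that called 2 genes, SKT5 had adjusted p = 0.0558 and 0.0556 and CRH1 adjusted p = 0.0828 and 0.0659 by limma. The further chitin and UDP-GlcNAc genes had 0 calls, and 2 (RCR1 and ALG13) with arrays 1+4 and 3+2 as pairs and on the Cy5-treated arrays alone, 1 (RCR1) with the culture as a random block and 1 (RCR1) on arrays 2, 3 and 4 with all their rows. Without 1 array they ranged from 0 to 2, with 2 without array 3. No mean of the 10 members changed sign under the settings that held it. Some settings left the means as they were, so a sign could not change there. CHS1 and CHS3 were held by 2 settings, both with an unchanged mean. CHS3 was −0.10 on array 3, its only array with treated RNA in Cy3. All 49 alternative values of the 7 differences between members stayed above 0. That was fixed in advance, since each difference was above 0 on every array and the alternatives averaged those values, some rescaled. The causes of the moves in the counts were not tested. The fit of arrays 2, 3 and 4 with all their rows, and the alternatives for the differences, were added after the data were seen. No paired analysis was possible because the arrays form 1 group of ratios, in which treated and untreated RNA already share an array.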
